A study of Homo sapiens with 6 samples.

Results

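The HOX and LHX homeobox genes are described here in A549 cells, a human lung adenocarcinoma line, with and without forced expression of IL17D, a secreted cytokine of the interleukin-17 family. The set was chosen with earlier results of these data known, and its members were taken by name and annotation alone. It holds every protein-coding row of the deposited gene count table whose symbol is HOXA, HOXB, HOXC or HOXD with a number, or LHX with a single digit. That gave 47 genes of the 58735 in the table: 11 HOXA, 10 HOXB, 9 HOXC, 9 HOXD and 8 LHX genes.

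The study introduced IL17D into A549 with the lentiviral vector pCCL.PPT.hPGK.IRES.GFP, in which the PGK promoter drives the insert and GFP is co-expressed, and the control cells received the same vector without an insert. Both groups were grown in RPMI medium with fetal bovine serum, and total RNA from 3 control and 3 IL17D libraries was sequenced. The sources used here do not say whether libraries of 1 group are separate cultures or transductions, so p-values measure only the spread between these libraries. Both groups thus carry a lentiviral vector with a PGK promoter in a carcinoma line.

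HOX genes encode homeodomain transcription factors that lie in 4 clusters, where gene order follows the order in which the genes are used along the body axis, with low paralog numbers at anterior and high numbers at posterior positions. They bind DNA with cofactors of the PBX and MEIS families and keep a record of position in adult tissues. In lung development, genes of the HOXA and HOXB clusters act in airway branching. LHX genes encode homeodomain factors with LIM domains, which bind the scaffold protein LDB1, and they are best known from the specification of neurons, kidney, limb and pituitary.

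The homeobox itself shows how near these genes are to each other in sequence, which bears on how well reads can be assigned. In GENCODE release 29 transcripts (build GRCh38), a homeobox of 180 bases was found by its recognition-helix signature in 45 of the 47 genes. Codons 42 to 53 are printed 5′ to 3′ for some of the genes described below, with codons 48 to 53, the conserved core of the DNA-contacting helix, in capitals. LHX4 stands for the LHX genes, HOXB13 and HOXA5 are the HOX genes with the smallest p, and HOXB7 is from the most strongly expressed stretch of the HOXB cluster.
LHX4: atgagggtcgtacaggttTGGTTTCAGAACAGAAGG
HOXB13: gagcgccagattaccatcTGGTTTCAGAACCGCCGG
HOXB7: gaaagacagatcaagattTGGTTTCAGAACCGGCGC
HOXA5: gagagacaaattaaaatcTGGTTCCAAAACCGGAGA

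Over the whole homeobox, LHX1 and LHX5 were identical at 160 of 180 bases, with a longest identical run of 53 bases. The median identity was 61.1% between HOX genes (741 pairs) and 45.0% between a HOX and an LHX gene (234 pairs). Outside genes that overlap on the chromosome, little of any transcript was repeated elsewhere. Of all 31-base stretches of a gene, at most 5.43% occurred in a non-overlapping gene, and 22 of the 47 genes had none. For LHX1 the share was 0.47% and for HOXB13 it was 0.96%.

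The 6 libraries held 14319398 to 16521021 reads on genes, and 3 reads, the limit that a count of 0 allows, correspond to 0.182 to 0.210 CPM (read counts scaled to a common library total), counting error only. IL17D itself stood at 1.48, 1.24 and 2.11 CPM in control and at 1901, 1956 and 1876 CPM in IL17D libraries, in accord with the labels. Of the 8 markers of A549 epithelium, KRT8 (7648 ± 130 CPM in control, SD, n = 3), KRT18, KRT7, NQO1 and AKR1B10 were high. CDH1 stood far below them, at 43.4 ± 2.65 CPM in control, and EPCAM (1.05 ± 0.375 CPM) and KRT19 (0.370 ± 0.184 CPM) were near or below 1 CPM. Among the 8 markers, the adhesion molecule CDH1 (adjusted p = 0.0306) and the aldo-keto reductase AKR1B10 (adjusted p = 3.88e-08) were lower with IL17D. The call on CDH1 did not hold when control replicate 2 (adjusted p = 0.0765) or 3 (0.135) or IL17D replicate 1 (0.269) or 2 (0.0806) was left out. Summed markers of other cells were below the level of CDH1. The 5 fibroblast genes added up to 22.5 to 24.6 CPM in control and 19.4 to 23.8 CPM with IL17D, nearly all of it COL1A1. The 3 endothelial genes added up to at most 0.608 CPM in any library, and the leukocyte genes PTPRC and CD3E had no read.

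In control cells the HOXB cluster led, the HOXA and HOXC clusters were expressed at lower levels, and the HOXD cluster was nearly silent. A gene was counted as expressed at a mean of at least 1 CPM over the 3 control libraries. By this measure 8 of 11 HOXA, 8 of 10 HOXB, 6 of 9 HOXC, 1 of 9 HOXD and 4 of 8 LHX genes were expressed, 27 of 47 in all. A requirement of at least 10 reads in each control library gave the same numbers. A minimum of 0.5 RPKM (CPM divided by the gene length in kilobases, as the table gives it) gave 24. With some HOXA genes close to 1 CPM, the HOXA number fell to 6 without control replicate 1 and to 7 without control replicate 3. The numbers of the other groups stayed the same when a control library was left out. Of the CPM on all HOX genes in control, HOXB held 63.1%, HOXA 22.9%, HOXC 10.3% and HOXD 3.63%.

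**Figure D1:**
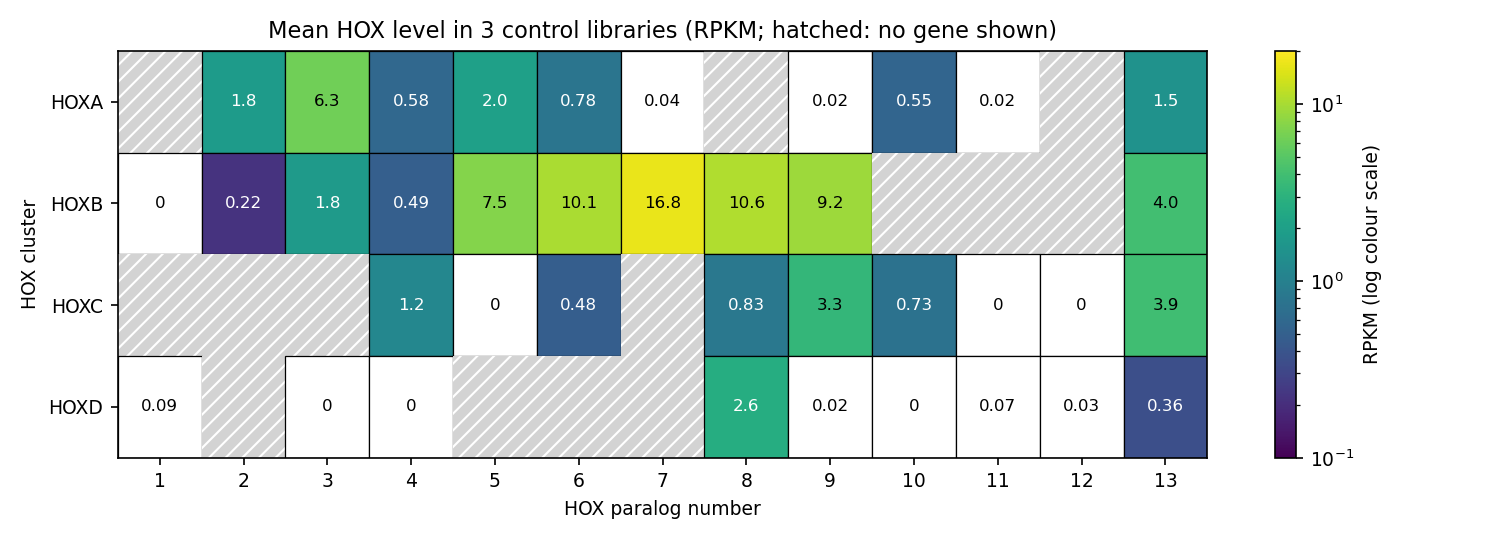
Mean level of each HOX gene in the 3 control libraries, in RPKM on a log colour scale, with clusters as rows and paralog numbers as columns; hatched cells show no gene and white cells lie below 0.1 RPKM. The run from HOXB5 to HOXB9 is the brightest, HOXA and HOXC show single brighter genes, and in HOXD only HOXD8 stands above 1 RPKM.

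Per length, the highest HOX level in control was that of HOXB7, at 16.8 ± 0.941 RPKM (SD, n = 3). HOXB8 (10.6 ± 0.226 RPKM), HOXB6 (10.1 ± 1.10 RPKM), HOXB9 (9.20 ± 0.377 RPKM) and HOXB5 (7.49 ± 1.40 RPKM) followed, so that a block of neighbours in the middle of the cluster carried most of its RNA. The wide range of mean ± SD of HOXB6 overlapped those of HOXB8 and HOXB9, and the range of HOXB5 overlapped that of HOXB9. The block fell off to both sides. HOXB3 was at 1.77 ± 0.137 RPKM and HOXB4 at 0.486 ± 0.0741 RPKM, HOXB2 had 5 to 11 reads per control library, and HOXB1, the anterior end of the cluster, had none. HOXB13, the posterior end and separated from HOXB9 by 98407 bases, was again expressed, at 3.99 ± 0.338 RPKM.

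In the HOXA cluster the highest level was that of HOXA3 (6.32 ± 0.212 RPKM), a gene of anterior identity. HOXA5, which acts in lung and airway formation, was at 1.98 ± 0.471 RPKM, HOXA2 at 1.78 ± 0.199, HOXA13 at 1.495 ± 0.316 and HOXA10 at 0.555 ± 0.0389 RPKM. The ranges of mean ± SD of HOXA2, HOXA5 and HOXA13 overlapped. HOXA7, HOXA9 and HOXA11 had 0 to 4 reads per control library although their neighbours HOXA6 and HOXA10 were counted in every library.

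In the HOXC cluster HOXC13 (3.94 ± 0.392 RPKM), known from hair and nail, and HOXC9 (3.32 ± 0.268 RPKM) led, followed by HOXC4 (1.17 ± 0.280 RPKM), HOXC8 (0.826 ± 0.281 RPKM), HOXC10 (0.734 ± 0.123 RPKM) and HOXC6 (0.479 ± 0.0632 RPKM). HOXC11 had no read in control, and HOXC12 and HOXC5 had none in any library. In the HOXD cluster HOXD8 stood alone at 2.65 ± 0.475 RPKM. HOXD13 was at 0.358 ± 0.167 RPKM, with 8 to 20 reads per control library, and the other 7 HOXD genes had 0 to 7 reads per control library.

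Of the LHX genes, LHX2 was highest at 6.41 ± 0.693 RPKM, within the spread of HOXA3 and above the mean of every HOX gene outside HOXB5 to HOXB9. LHX4, a factor of pituitary development, was at 1.55 ± 0.151 RPKM and LHX1, a factor of kidney and forebrain development, at 0.569 ± 0.105 RPKM. LHX9 (0.115 ± 0.0288 RPKM) and LHX6 (0.0918 ± 0.0274 RPKM) were lower still, and LHX3, LHX5 and LHX8 had 0 to 3 reads per control library.

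The genes at 0 need a reservation about counting. HOXB1, HOXC5, HOXC12, HOXD3 and HOXD4 had no read in any of the 6 libraries. In the annotation, HOXC5 shares 59.9%, HOXD3 62.2% and HOXD4 80.5% of its exon bases with another gene on the same strand, whereas HOXB1 and HOXC12 share none. The partners held few reads as well. Those of HOXC5, AC012531.2 and a noncoding entry also named HOXC5, had 0 reads in every library. AC009336.2, the partner of HOXD3 and HOXD4, had 0 to 4 reads per library. How the authors' counting treated reads that fall on overlapping genes is not given in the sources used here, and its part in these zeros was not tested. In all, 18 of the 47 genes share some same-strand exon bases with another gene, and 30 share bases on either strand. With strand handling unknown, reads of HOXA7, which overlaps the antisense gene HOXA-AS3 over 62.5% of its exon bases, cannot be told apart from those of its partner.

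The start of HOXC4 shows the same difficulty at the level of the promoter. RefSeq (GRCh38.p14) has promoter entries for 26 of the 47 genes, 39 entries in all, and the entries of HOXC4 and HOXC5 are the same window, chr12:54016638-54016937 on the plus strand. The start of HOXC4, 54016931, lies within it. The protein-coding HOXC5 described here spans 54032853 to 54035358, far past the window, and the noncoding entry also named HOXC5 starts nearer, at 54017110. The window is printed because both symbols carry it, so it is not evidence of a promoter of the protein-coding HOXC5. HOXC4 was counted at 3.18 ± 0.762 CPM in control while HOXC5 had no read. Capitals mark CCAAT or its reverse complement ATTGG, searched on both strands. This motif occurs in 34.6% of all 35116 promoter entries of this length and in 21 of the 39 entries of HOX and LHX genes.
HOXC4 and HOXC5: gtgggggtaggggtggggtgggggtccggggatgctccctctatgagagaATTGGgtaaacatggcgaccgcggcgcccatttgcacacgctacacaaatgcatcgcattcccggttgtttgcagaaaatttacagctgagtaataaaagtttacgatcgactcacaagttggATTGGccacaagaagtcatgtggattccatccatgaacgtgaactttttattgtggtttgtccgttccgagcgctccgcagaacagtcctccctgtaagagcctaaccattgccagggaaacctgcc

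The window held 15 CpG dinucleotides at 51.7% GC. Over all entries of HOX and LHX genes the median was 23 CpG, against 14 CpG over all promoter entries. Several genes have more than 1 entry, so these entries are not independent.

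The second question of the design is what changed with IL17D. Of the 47 genes, 29 had enough reads to be tested, 8 HOXA, 8 HOXB, 6 HOXC, 2 HOXD and 5 LHX genes. A single gene passed an adjusted p below 0.05: LHX1 was lower with IL17D, and no gene was higher. Over all 15754 tested genes, 249 passed (1.58%), and 143 passed in the lower direction (0.908%). The call on LHX1 was close to the threshold, and it was lost when any of 5 of the 6 libraries was left out. At an unadjusted p below 0.05 there were 4 of 29 genes, LHX1, HOXB13, LHX2 and HOXA5, where 11.6% of all tested genes reached it. The libraries of the 2 groups did not overlap for 5 of 29 genes (17.2%), against 15.8% of all tested genes. These were LHX1, HOXB13 and HOXA13 on the lower side and LHX2 and LHX6 on the higher side. The counts of HOX and LHX genes were thus near those of all genes.

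LHX1 (ENSG00000273706, chr17:36936785-36944612, plus strand) was counted with 53, 41 and 36 reads in the control libraries and with 18, 21 and 22 reads in the IL17D libraries. In CPM these were 3.26, 2.83 and 2.24 against 1.09, 1.28 and 1.54. Every control library lay above every IL17D library, and the gap between the nearest pair was wider than the range of the IL17D libraries and narrower than that of the control libraries. The mean went from 2.78 ± 0.514 to 1.30 ± 0.225 CPM (SD, n = 3 each), a log2 fold change of -1.09 (SE 0.294, edgeR quasi-likelihood test, adjusted p = 0.0476). The level with IL17D was 0.469 of control, with a 95% confidence interval of 0.309 to 0.709.

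LHX1 kept its direction in all 13 alternative fits, and 6 of the 12 that gave it an adjusted p lost the call. Its adjusted p was 0.238 when control replicate 1 was left out and 0.123 for control replicate 2. Leaving out IL17D replicate 1, 2 or 3 gave 0.188, 0.128 and 0.0759, and limma voom on all libraries gave 0.0604. The call was kept, at 0.0318, when control replicate 3 was left out. DESeq2 gave LHX1 no adjusted p because of its low mean count, with an unadjusted p of 0.00156.

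**Figure D2:**
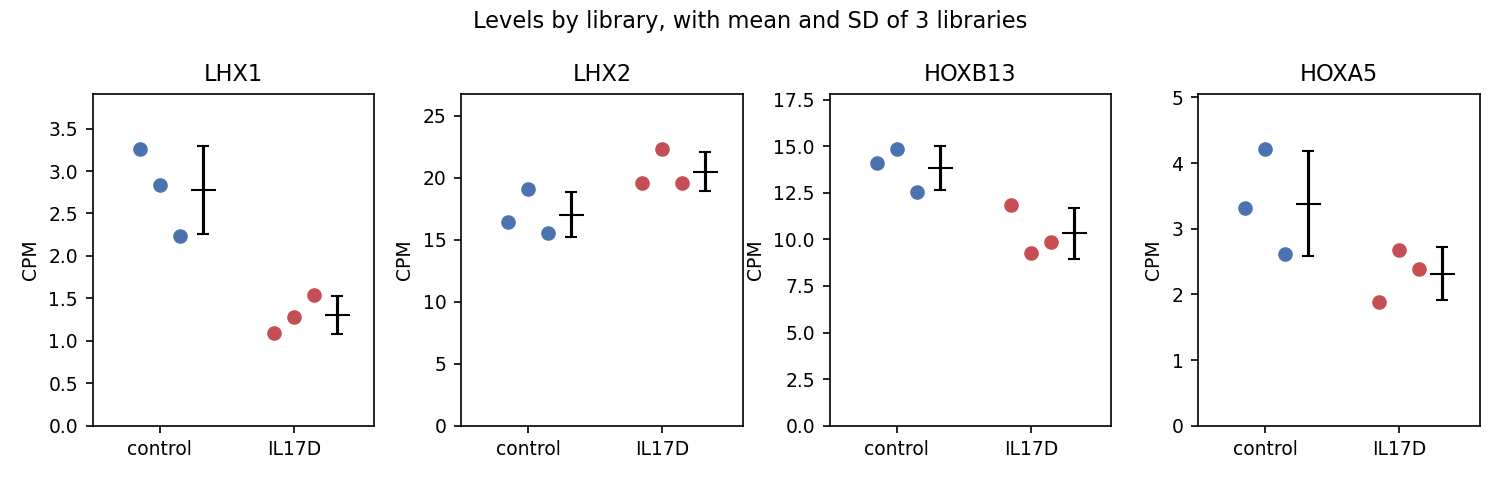
CPM of LHX1, LHX2, HOXB13 and HOXA5 in each of the 3 control (blue) and 3 IL17D (red) libraries, with the mean and SD of each group in black; each panel has its own axis from 0. The groups are apart for LHX1, LHX2 and HOXB13, and for HOXA5 the lowest control library (2.61 CPM) lies below the highest IL17D library (2.68 CPM).

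The protein-coding genes next to LHX1 did not share its difference in level. AATF, an apoptosis-antagonizing factor whose gene starts 4263 bases past LHX1, was at 101 ± 4.37 CPM in control and 101 ± 6.96 CPM with IL17D (adjusted p = 0.999). MRM1, the next protein-coding gene on the other side, was at 29.1 ± 0.409 and 27.1 ± 2.21 CPM (adjusted p = 0.682). The noncoding LHX1-DT, which runs the opposite way from just before LHX1, was at 1.004 ± 0.429 and 1.009 ± 0.620 CPM (adjusted p = 0.992), with 5 to 26 reads per library. On the opposite strand, AC243773.1 overlaps 7.5% of the exon bases of LHX1.

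LHX2 (ENSG00000106689, chr9:124001670-124033301, plus strand), the LHX gene with the highest level, leaned the other way. It stood at 16.4, 19.1 and 15.5 CPM in control and at 19.6, 22.3 and 19.5 CPM with IL17D. The groups did not overlap, but the lowest IL17D library was only slightly above the highest control library. The log2 fold change was 0.27 (95% confidence interval 0.07 to 0.47, adjusted p = 0.22), and it did not pass in any of the 13 alternative fits. The neighbours of LHX2 in the table, DENND1A (log2 fold change -0.02, adjusted p = 0.964) and NEK6 (-0.10, adjusted p = 0.538), did not pass either.

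The remaining LHX genes were less certain. LHX4 was at 9.41 ± 0.915 CPM in control and 10.4 ± 1.76 CPM with IL17D, with a log2 fold change of 0.14 and a 95% confidence interval of -0.13 to 0.42. A part of its exons, 30.8%, overlaps ACBD6 on the opposite strand. LHX6 had 5 to 10 reads per control and 11 to 14 reads per IL17D library (log2 fold change 0.56, adjusted p = 0.722), and LHX9 had 14 to 23 and 12 to 17 reads (log2 fold change -0.42, adjusted p = 0.76). At these counts the 95% confidence intervals reached from -0.39 to 1.51 for LHX6 and from -1.21 to 0.38 for LHX9. Both intervals include 0, so the direction of change was not settled for either gene. The median log2 fold change of the 5 tested LHX genes was 0.14, with 2 of 5 below 0.

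HOXB13 (ENSG00000159184, chr17:48724763-48729178, minus strand), a posterior HOX gene best known from the prostate, was second in the set by p. Its libraries stood at 14.1, 14.9 and 12.6 CPM in control and at 11.9, 9.24 and 9.88 CPM with IL17D. All 3 IL17D libraries were below all 3 control libraries. The mean went from 13.8 ± 1.17 to 10.3 ± 1.36 CPM, a log2 fold change of -0.42 (SE 0.120), and the adjusted p of 0.0718 missed the threshold. Leaving out control replicate 3 took it to 0.043 and leaving out IL17D replicate 1 to 0.0378, whereas leaving out any other library gave 0.204 to 0.287. HOXB13 shares no exon bases with another gene.

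No other gene of the HOXB cluster had an unadjusted p below 0.05. HOXB6, HOXB7, HOXB8 and HOXB9 added up to 99.1, 97.8 and 95.3 CPM in control and to 96.9, 100.1 and 92.2 CPM with IL17D. These sums overlapped between the groups, at a ratio of the means of 0.990. HOXB7 had a log2 fold change of -0.03 with a 95% confidence interval of -0.20 to 0.14, HOXB8 of 0.06 (-0.12 to 0.24), HOXB9 of -0.03 (-0.20 to 0.14) and HOXB6 of -0.05 (-0.22 to 0.13). HOXB5 was at 15.3 ± 2.85 and 13.6 ± 0.803 CPM (log2 fold change -0.16, adjusted p = 0.669). HOXB4 was at 1.83 ± 0.278 and 1.27 ± 0.522 CPM, with 13 to 31 reads per library (log2 fold change -0.52, 95% confidence interval -1.21 to 0.18, adjusted p = 0.627).

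Around HOXB13, 2 further genes stood lower in all 3 IL17D libraries without passing the test. Groups without overlap, in either direction, were found for 15.8% of all tested genes. TTLL6, a tubulin polyglutamylase gene 33057 bases beyond HOXB13, was at 5.34 ± 0.919 CPM in control and 3.95 ± 0.377 CPM with IL17D (log2 fold change -0.44, adjusted p = 0.328). The noncoding LINC02086, which lies between HOXB9 and HOXB13, was at 5.28 ± 0.588 and 4.04 ± 0.234 CPM (log2 fold change -0.39, adjusted p = 0.388). In the same interval, the noncoding AC103702.2 overlapped between the groups, at 11.5 ± 0.619 and 10.4 ± 2.06 CPM (log2 fold change -0.14, adjusted p = 0.757). SKAP1, the protein-coding gene at the other end of the cluster, had 1 to 7 reads per library. These genes were set beside HOXB13 after their values were seen, and no test was made over the stretch. Such a neighbour was not particular to HOXB13. CALCOCO1, the nearest protein-coding gene before the HOXC cluster, was also lower in all 3 IL17D libraries. It was at 16.7 ± 0.523 CPM in control and 13.2 ± 1.80 CPM with IL17D (log2 fold change -0.34, adjusted p = 0.128). SKAP2 beside HOXA, SMUG1 beside HOXC and MTX2 beside HOXD overlapped between the groups.

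HOXA5 (ENSG00000106004, chr7:27141052-27143668, minus strand) stood at 3.32, 4.22 and 2.61 CPM in control and at 1.88, 2.68 and 2.38 CPM with IL17D. The groups overlapped by 1 library on each side. The log2 fold change was -0.54 (95% confidence interval -1.04 to -0.04, adjusted p = 0.377), from 31 to 61 reads per library. HOXA13 was at 6.52, 6.84 and 9.45 CPM in control and at 6.14, 6.26 and 6.38 CPM with IL17D. Control replicate 3 was apart from the others, and the nearest libraries of the 2 groups differed little (log2 fold change -0.28, adjusted p = 0.515). HOXA3, the most abundant HOXA gene, was at 27.2 ± 0.915 and 25.4 ± 1.49 CPM (log2 fold change -0.10, 95% confidence interval -0.26 to 0.06). HOXA2 had a log2 fold change of 0.00 (95% confidence interval -0.38 to 0.39).

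In the HOXC cluster HOXC13 was at 10.7, 9.06 and 8.95 CPM in control and at 10.3, 6.39 and 7.71 CPM with IL17D, with overlap (log2 fold change -0.23, adjusted p = 0.601). HOXC9 was at 5.57 ± 0.451 and 5.58 ± 1.34 CPM and HOXC4 at 3.18 ± 0.762 and 3.32 ± 0.231 CPM, with log2 fold changes of 0.01 and 0.06. HOXC6, HOXC8 and HOXC10 had 12 to 32 reads per library and log2 fold changes of -0.33, -0.47 and -0.29, each with an interval across 0. In the HOXD cluster HOXD8 was at 8.31, 6.71 and 5.85 CPM in control and at 5.84, 6.57 and 6.03 CPM with IL17D, with overlap (log2 fold change -0.18, adjusted p = 0.741). HOXD13 was at 0.802 ± 0.373 and 0.859 ± 0.593 CPM.

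**Figure D3:**
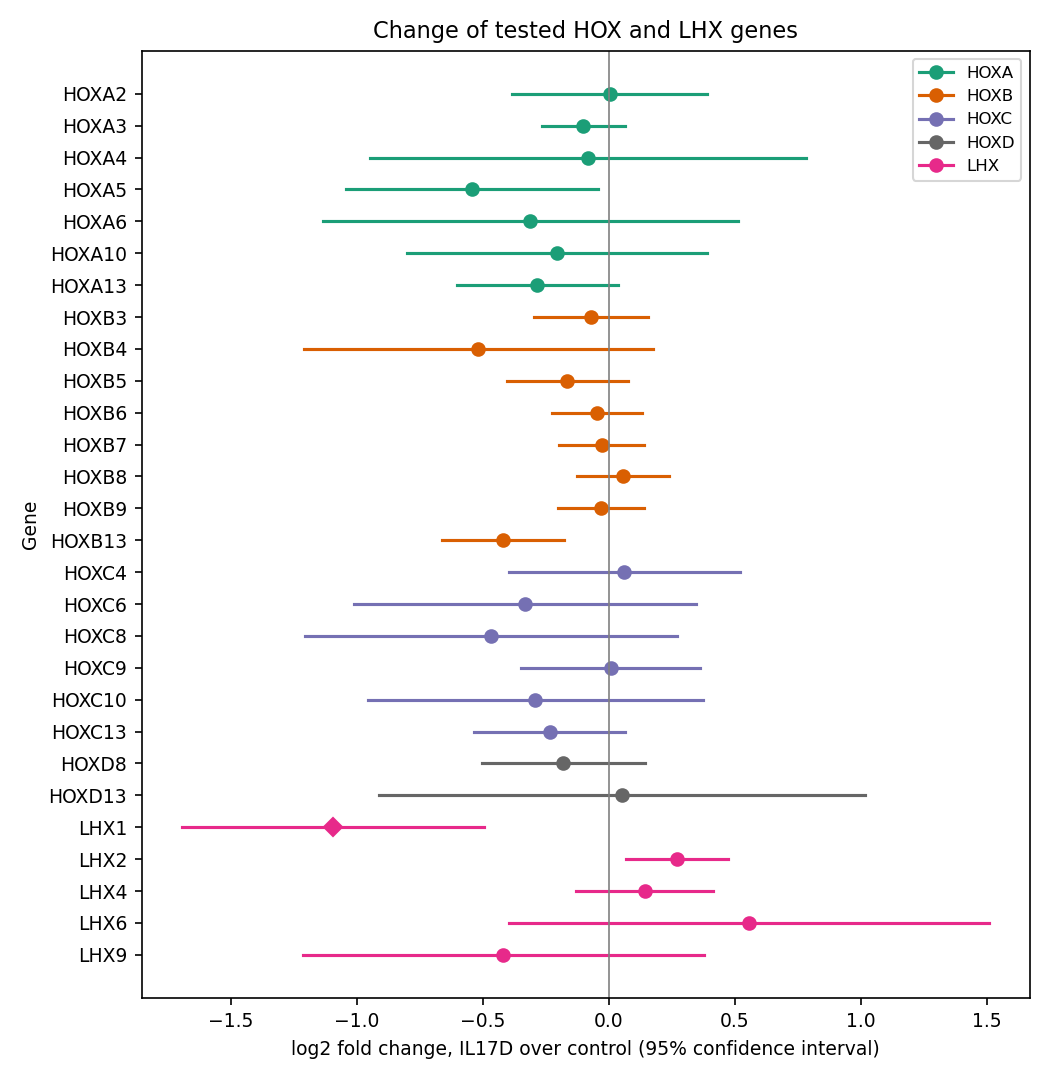
Log2 fold change of IL17D over control with its 95% confidence interval for tested HOX and LHX genes, coloured by group, from edgeR's quasi-likelihood fit; the diamond marks an adjusted p below 0.05. LHX1 is the single diamond, at -1.09, and the intervals of HOXA3 and of HOXB6 to HOXB9 are narrow and include 0.

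Although no HOX gene passed, most of the fitted HOX differences were small and below 0. Of the 24 tested HOX genes 18 (75%) had a log2 fold change below 0, where 50.1% of all tested genes did. The median was -0.13, and over all tested genes it was 0.00. By cluster, 6 of 8 HOXA (median -0.15), 7 of 8 HOXB (-0.06), 4 of 6 HOXC (-0.26) and 1 of 2 HOXD genes (-0.06) lay below 0. Genes of a cluster are neighbours and partly overlap, so they are not independent, and no test was made over the list.

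The summed levels, which come from the same counts and add no separate evidence, leaned the same way. All HOX genes together made up 227.9, 228.3 and 218.6 CPM in control and 215.2, 211.6 and 202.2 CPM with IL17D. The 3 IL17D sums were below the 3 control sums, and the ratio of the means was 0.932 (224.9 ± 5.46 to 209.7 ± 6.69 CPM). The HOXA genes, a part of the HOX sum, went from 50.03, 53.02 and 51.42 to 46.8, 48.1 and 45.6 CPM. Their groups did not overlap either, at a ratio of 0.909. The HOXB sums overlapped (142.0 ± 4.87 and 134.6 ± 5.12 CPM, ratio 0.948), as did those of HOXC (23.3 ± 0.808 and 20.9 ± 3.36 CPM), HOXD (8.17 ± 1.62 and 7.39 ± 0.531 CPM) and LHX genes (31.1 ± 2.38 and 34.0 ± 3.04 CPM). Without HOXB6 to HOXB9, which hold 43.3% of the HOX CPM in control, the HOX sum went from 128.8, 130.5 and 123.4 to 118.3, 111.5 and 110.1 CPM, a ratio of 0.888. That subset was chosen after the values were seen. In bulk RNA, fewer cells that express a gene and less RNA per cell cannot be told apart.

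**Figure D4:**
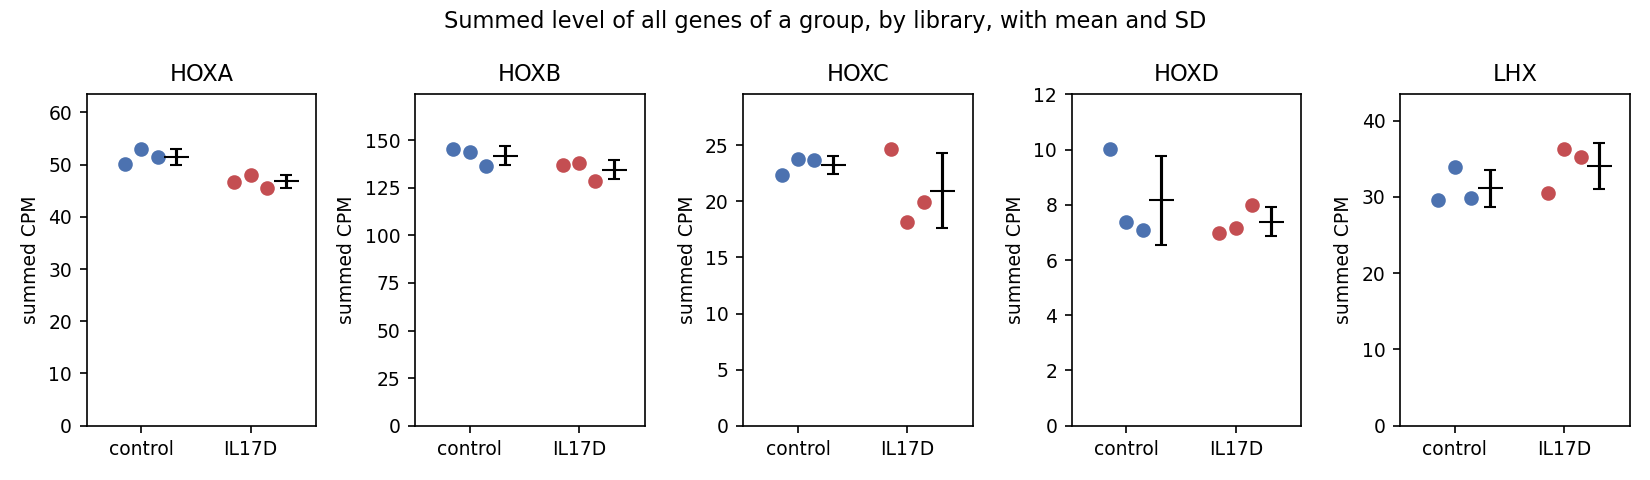
Summed CPM of all genes of each HOX cluster and of the LHX genes in the 3 control (blue) and 3 IL17D (red) libraries, with the mean and SD in black; each panel has its own axis from 0. The HOXA sums of the groups do not overlap (45.6 to 48.1 against 50.03 to 53.02 CPM), and those of the other groups do.

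The 18 genes that were not tested had 0 to 11 reads in any library. HOXB2 was the highest of them, at 0.507 ± 0.170 and 0.438 ± 0.140 CPM. No HOX or LHX gene that lacked reads in control was clearly present with IL17D: HOXC11 had 3 reads in IL17D replicate 2 only, and HOXD10 had 2 and 3 reads in IL17D replicates 2 and 3.

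The table also lists 57 noncoding genes within the HOX clusters, 22 in HOXA, 15 in HOXB, 13 in HOXC and 7 in HOXD, and 8 of them were tested. None passed, with log2 fold changes from -0.39 to 0.17 and adjusted p from 0.388 to 0.988. HOTAIRM1, an antisense RNA of the HOXA cluster, was at 4.77 ± 1.31 CPM in control and 5.001 ± 0.499 CPM with IL17D. HOXB-AS3, which overlaps HOXB6, was at 18 ± 1.55 and 17.2 ± 1.34 CPM. With unstated strand handling, these and the coding genes that they overlap are uncertain.

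The proteins that work with or act on HOX and LHX genes were followed in lists. Of 9 HOX cofactors 8 were tested and none passed. PBX2 was at 36.3 ± 1.98 CPM in control and 40.4 ± 2.35 CPM with IL17D (log2 fold change 0.16, adjusted p = 0.373), and MEIS3 (log2 fold change 0.11, adjusted p = 0.687) and PBX3 (-0.03, adjusted p = 0.948) followed. Of 6 LIM-domain partners 3 were tested and none passed. LDB1, the scaffold of LHX complexes, was at 63.1 ± 0.785 and 65.7 ± 2.55 CPM (adjusted p = 0.746), and LMO4, a LIM-only protein that competes for LDB1, was at 35.9 ± 0.533 and 32.2 ± 1.07 CPM (log2 fold change -0.15, adjusted p = 0.378).

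Other LIM homeobox genes outside the LHX names were expressed as well. LMX1B was at 9.47 ± 1.04 CPM in control and 9.29 ± 1.84 CPM with IL17D and ISL2 at 6.67 ± 1.61 and 6.13 ± 0.705 CPM, neither of which passed, and ISL1 and LMX1A had no read. Of the 8 EVX and ParaHox genes, relatives of the HOX genes, only the gut factor CDX2 was tested (2.67 ± 0.571 and 2.54 ± 0.342 CPM, adjusted p = 0.956).

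Chromatin regulators of HOX clusters were all expressed. None of the 13 trithorax-type activators passed, among them KMT2D (264 ± 11.2 and 276 ± 7.27 CPM, adjusted p = 0.581). None of the 20 Polycomb repressors passed, among them SUZ12, a core subunit of the complex that methylates histone H3 (111 ± 6.39 and 112 ± 0.218 CPM, adjusted p = 0.95). Their median log2 fold changes were both 0.04. At an unadjusted p below 0.05 there were 2 of 13 and 1 of 20 genes, where 11.6% of all tested genes reached it.

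Retinoic acid is a classical inducer of HOX genes, and 13 of 18 genes of its signaling were tested. An unadjusted p below 0.05 was reached by 4 of the 13, against 11.6% of all tested genes. ALDH1A1, which makes retinoic acid from retinal, passed and was lower with IL17D, at 4767, 4736 and 4866 CPM in control and 4446, 4462 and 4593 CPM with IL17D. The groups did not overlap, and the difference was small, with a log2 fold change of -0.09 (SE 0.0228, adjusted p = 0.0302). The call did not hold when control replicate 3 (adjusted p = 0.0735) or IL17D replicate 1 (0.227), 2 (0.146) or 3 (0.0732) was left out. The receptors RXRA (log2 fold change -0.04, adjusted p = 0.792), RARG (0.04, adjusted p = 0.867) and RARB (0.01, adjusted p = 0.988) did not pass. Nor did the retinol transporter STRA6 (-0.16, adjusted p = 0.224). Nearest to passing, and named after their values were seen, were CYP26B1, which degrades retinoic acid (39.5 ± 0.399 CPM in control and 46.2 ± 4.42 CPM with IL17D, log2 fold change 0.23, adjusted p = 0.102), and DHRS3, which reduces retinal (45.3 ± 0.901 and 39.5 ± 1.10 CPM, log2 fold change -0.20, adjusted p = 0.128). The groups did not overlap for either gene. Of the 13 tested genes, 7 had a log2 fold change below 0 and 6 above. Retinoic acid was not measured, and a link between these genes and the HOX levels was not tested.

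**Figure D5:**
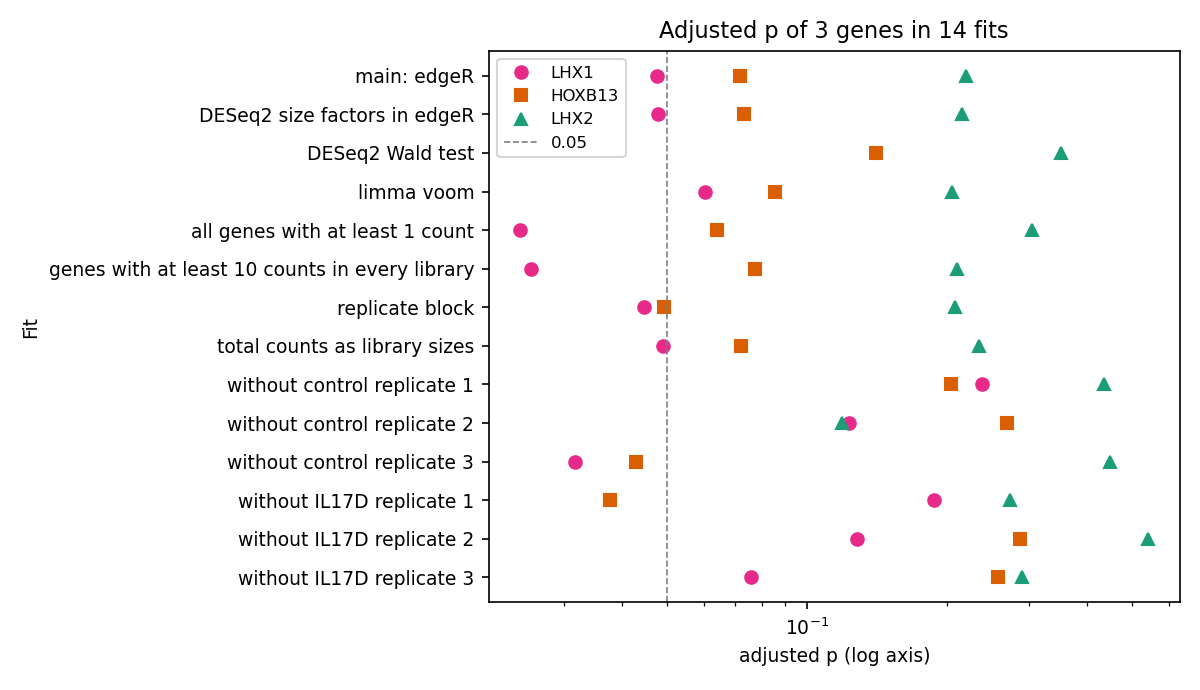
Adjusted p, on a log axis, of LHX1, HOXB13 and LHX2 in the edgeR fit and in the 13 alternative fits, with the threshold of 0.05 as a dashed line; DESeq2 gave LHX1 no adjusted p. LHX1 lies on both sides of the line (0.0242 to 0.238), HOXB13 mostly to the right of it (0.0378 to 0.287), and LHX2 always to the right (0.119 to 0.543).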

How the data were processed

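The authors deposited 1 table of raw read counts per gene for all 6 libraries. The labels name Bowtie2 and hg38 without a role, and the counting tool is not given in the sources used here. Coordinates and lengths of all 47 genes equal those of GENCODE release 29. Groups came from the sample labels. In R 4.3.3, genes were filtered with filterByExpr, scaled by TMM and compared with edgeR 4.0.16 (quasi-likelihood test, two-sided, no covariate), with Benjamini-Hochberg adjustment over 15754 genes. Confidence intervals are 95%, errors are SDs over 3 libraries, and CPM follow TMM. Alternatives used DESeq2 1.42.0, limma 3.58.1 (voom), other size factors and filters, a replicate block, and each library left out. Steps were tested on simulated data. The HOX and LHX genes, the lists and the naming rule were chosen with earlier results of these data known. The rule named genes by adjusted or unadjusted p below 0.05, by control level in each cluster, as neighbours, and by level in the lists. Some genes and sequences are not reported singly here. Figures were drawn with matplotlib 3.10.9.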

Additional observations from a re-analysis of the deposited data

How the results depend on the processing

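The 13 alternatives left no HOX or LHX gene higher at an adjusted p below 0.05. The number lower was 1 in the fit reported, 0 with DESeq2's Wald test (which gave LHX1 no adjusted p) and limma voom, 2 with the replicate block, and 0 to 2 when 1 library was left out. LHX1 kept its direction throughout. Its log2 fold change was -1.08 with limma voom (adjusted p = 0.0604) and -1.23 to -0.96 when 1 library was left out, and 0.0242 to 0.238 was the range of its adjusted p over all alternatives. The replicate numbers did not pair the libraries (correlations of same-numbered libraries from -0.0151 to 0.00997). The replicate block brought HOXB13 to an adjusted p of 0.0493. The number of all genes called was 249, 145 to 295 over the alternatives and 145 to 267 when 1 library was left out (155 for IL17D replicate 1, 145 for IL17D replicate 3). ALDH1A1 had an adjusted p of 0.0722 with the replicate block, and CDH1 of 0.0553 with DESeq2's Wald test. The median log2 fold change of tested LHX genes was 0.14, and -0.14 both when every gene with a count was tested and when a minimum of 10 counts was required in each library, since these filters test other LHX genes. The share of tested HOX genes below 0 stayed between 70.6% and 83.3%. Total counts as library sizes, an alternative chosen after seeing the data, left LHX1 at 0.049. Depth limits the genes under about 30 reads, whose intervals span wide ranges.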
